A study of Mus musculus with 2 samples.

Results

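Krt5, Krt14, Krt1, Krt10, Krt15 and Krt79 are the 6 keratin genes whose transcripts mark the main lineages of mouse epidermis and hair follicle. They were chosen by symbol from the 27998 genes of 2 single-cell RNA libraries of healing mouse skin. Their levels were read in the cells that carried keratin RNA, which were those with at least 2000 unique molecular identifiers (UMIs, 1 for each captured transcript), at least 20 UMIs of Krt5, Krt14, Krt1 and Krt10 together and none of Ptprc, the gene of the leukocyte antigen CD45. This gate held 504 of the 12800 deposited cells of WT_LW and 1368 of the 13751 of TLR9agonist_LW.

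Both libraries came from large wounds, 1.8 cm across, on the back of male wild-type C57BL/6J mice 6 to 8 weeks old. Wounds of WT_LW received PBS on days 0, 3 and 6, and wounds of TLR9agonist_LW received 4 μg of ODN2395, a CpG oligodeoxynucleotide agonist of the DNA sensor TLR9, on the same days. Tissue was taken 2 days after the scab detached, the epidermis and dermis were separated with enzymes and dissociated, dead cells were removed, and the cells were combined before droplet capture. The sources name 6 mice in one place and 5 samples per group in another, PBS or a control oligonucleotide as the control, and spraying, dropwise addition or injection as the route. Each group is 1 library of pooled mice. The comparison therefore has no replicate and no test, each interval below is a 95% interval that covers counting error alone, and the treatment cannot be told apart from differences among mice or preparations.

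Keratins form intermediate filaments from pairs of an acidic type I and a basic type II chain. Krt5 (type II) and Krt14 (type I) pair in the basal layer, where the dividing cells of epidermis and outer root sheath lie. Krt1 (type II) and Krt10 (type I) replace them as cells leave that layer and differentiate. Krt15 (type I) is a basal keratin best known as a marker of bulge stem cells of the follicle, and Krt79 (type II) marks the upper follicle and the cells that line its opening. In wounded skin, keratinocytes also switch on the stress keratins Krt6a, Krt6b, Krt16 and Krt17. Levels are UMIs of a gene per 1000000 UMIs of the same cells (CPM). Because 4 of the 6 genes also defined the gate, their levels in it are partly fixed by that choice and are given as a description, while Krt15 and Krt79 played no part in it.

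The 6 genes lie in 2 keratin clusters. In the RefSeq annotation of GRCm38.p6, chromosome 11 holds the type I genes, with Krt10 between Krt28 and Krt12, Krt15 between Krt13 and Krt19, and Krt14 next to Krt16. Chromosome 15 holds the type II genes, with Krt5 next to Krt6a, Krt1 between Krt2 and Krt77, and Krt79 between Krt4 and Krt78. The 100 bases before the RefSeq start are printed for 1 basal, 1 suprabasal and 1 follicle member, the members with a usable window, to show the bases just before each start. Capitals mark the TATA-like words TATAAA or ATAAAA, looked for on both strands. The windows are chr15:101712906-101713005 for Krt5, chr11:99389365-99389464 for Krt10 and chr15:101940325-101940424 for Krt79, each on the minus strand of GRCm38.p6.
Krt5: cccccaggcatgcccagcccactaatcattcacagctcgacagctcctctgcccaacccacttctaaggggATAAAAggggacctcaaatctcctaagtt
Krt10: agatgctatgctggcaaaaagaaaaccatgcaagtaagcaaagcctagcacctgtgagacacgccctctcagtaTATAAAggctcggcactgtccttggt
Krt79: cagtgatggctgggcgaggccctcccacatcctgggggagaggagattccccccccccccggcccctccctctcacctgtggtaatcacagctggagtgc
Krt5 held ATAAAA with its first base at position -29 and Krt10 held TATAAA at -26, counted back from the start, whereas the Krt79 window held neither word and was richer in G and C, at 68% against 54% and 48%. Among the 32851 RefSeq promoter windows, 5.56% held TATAAA and 7.07% held ATAAAA within these 100 bases on either strand. A match describes letters only. The table had no entry for Krt1 or Krt15, and the Krt14 entry starts within the annotated gene and is not shown.

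The gated cells carried the RNA of keratinocytes. Perp, a desmosome gene, had a UMI in 98.2% of them in WT_LW and 98.7% in TLR9agonist_LW, and Sfn, a gene of stratified epithelium, in 98.2% and 99.5%. Trp63, the basal epithelial transcription factor, had one in 71.6% and 75.5%. T cells, defined by markers, gave 17.5% and 45.0% for Perp, 37.6% and 73.9% for Sfn and 2.34% and 4.27% for Trp63, so the background of the first 2 was large and unequal. The median gated cell held 13101 UMIs in WT_LW and 21882.5 in TLR9agonist_LW, and all gated cells together 9154653 and 30955739 UMIs. They made up 4.96% (4.54 to 5.40) and 11.6% (11.0 to 12.2) of the cells with at least 2000 UMIs, a share that the combining of epidermal and dermal cells can also set. The condition on Ptprc took away 232 and 351 cells. Few cells lay at the keratin threshold. In WT_LW 7 cells had 18 or 19 UMIs of the 4 gate keratins and 2 had 20 or 21, and in TLR9agonist_LW the numbers were 35 and 20. The libraries shared 47 barcodes, none of them gated. A marker rule put 175 and 847 gated cells, or 34.7% and 61.9%, into the fibroblast class. Summed over gated cells, the fibroblast markers Lum and Pdgfra also lay above T cells. Lum was at 118 and 197 CPM against 48.1 and 76.9, and Pdgfra at 6.88 and 9.05 against 2.53 and 2.57. The median gated cell, however, held 6.24 and 8.30 fibroblast marker UMIs per 10000, against 9.95 and 17.2 in T cells, and only 61 and 159 gated cells held 50 or more. Leaving those cells out is given below where it matters.

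Krt15 and Krt79, called the follicle keratins here, stood out from the other members. The name is a label, since Krt15 is also a basal keratin, and whether cells with Krt15 were follicle cells was not tested. Krt15 was 5.21-fold lower and Krt79 3.55-fold lower in TLR9agonist_LW than in WT_LW, while the 4 epidermal keratins were between 1.15-fold and 1.74-fold lower. Of the 6 members, 2 lay at or under a log2 ratio of -1, against 12.7% of all genes with at least 200 UMIs. All 6 lay under 0, as did 80.0% of all genes, since the median gene had a log2 ratio of -0.44. Relative to that median gene Krt15 stood at -1.94 and Krt79 at -1.39, past a level of -1 that 2.96% of genes reached. The other members stood near it, from -0.36 for Krt5 to 0.24 for Krt14.

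**Figure D1:**
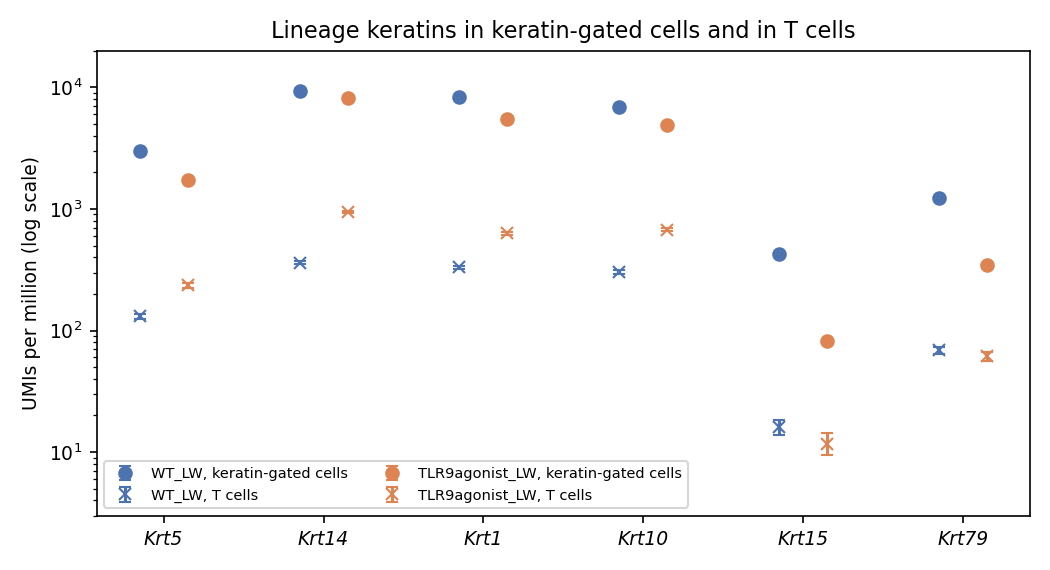
Level of each lineage keratin in CPM (UMIs per 1000000, log axis) in keratin-gated cells (circles) and in T cells (crosses) of WT_LW and TLR9agonist_LW, with exact Poisson 95% intervals that are often smaller than the symbol. In gated cells the gap between libraries is widest for Krt15 (424 against 81.4) and Krt79 (1223 against 345), and in T cells the 4 epidermal keratins are higher in TLR9agonist_LW.

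Among the basal keratins, Krt5 was at 2988 CPM (2953 to 3024) in WT_LW and 1717 (1703 to 1732) in TLR9agonist_LW, with a log2 ratio of -0.80 (-0.82 to -0.78). Its partner Krt14 gave more UMIs than the other members in both libraries, at 9359 (9296 to 9421) and 8152 (8121 to 8184), with a log2 ratio of -0.20 (-0.21 to -0.19). The sign for Krt14 depends on the scale, since it was 0.24 relative to the median gene. The pair thus differed unequally between the libraries. The UMIs of Krt14 per UMI of Krt5 numbered 3.13 in WT_LW and 4.75 in TLR9agonist_LW, with a log2 ratio of 0.60 (0.58 to 0.62). The shift was of like size among cells of like keratin balance, at 0.50 in cells with mostly basal keratins, 0.66 in mixed cells and 0.64 in cells with mostly suprabasal keratins. A ratio between genes reflects capture as well as abundance, and whether capture was alike in the 2 libraries was not tested. Krt14 is also close in sequence to Krt16 and Krt17, and how reads were split among them is not given in the sources used here. In T cells, which should lack both, the ratio was also lower in WT_LW, at 2.77 against 4.0.

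The suprabasal pair was lower in TLR9agonist_LW as well. Krt1 was at 8401 CPM (8342 to 8461) in WT_LW and 5446 (5420 to 5472) in TLR9agonist_LW, with a log2 ratio of -0.63 (-0.64 to -0.61). Krt10 was at 6891 (6838 to 6945) and 4929 (4905 to 4954), with a log2 ratio of -0.48 (-0.50 to -0.47). Both lay close to the median gene, at -0.19 and -0.04 relative to it. Krt1 gave 1.22 UMIs for each UMI of Krt10 in WT_LW and 1.10 in TLR9agonist_LW. Over all gated cells this ratio moved less than that of the basal pair, with a log2 ratio of -0.14 (-0.16 to -0.12). It was -0.03 in the mixed range, -0.28 in the suprabasal range and -1.05 (-1.20 to -0.89) in the basal range. In cells with mostly basal keratins Krt10 was at 105 and 284 CPM, below the 303 and 675 found in T cells. T cells were shallower (4999 and 5253 UMIs at the median) than these cells (15932 and 20907), and CPM does not allow for that. How much of this Krt10 was free RNA was not tested.

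Most single cells leaned to one pair of keratins or the other. The suprabasal share of a cell, which is Krt1 and Krt10 UMIs as a percentage of the UMIs of the 4 gate keratins, had a median of 21.6% in WT_LW (quartiles 2.21% and 81.4%) and 43.9% in TLR9agonist_LW (quartiles 5.58% and 81.6%). Cells at or below 20% are called the basal range, those at or above 80% the suprabasal range and those between the mixed range. These are stretches of a score and not cell types. The basal range held 49.8% (45.3 to 54.3) of gated cells in WT_LW and 37.9% (35.3 to 40.5) in TLR9agonist_LW. The mixed range held 24.2% (20.5 to 28.2) and 35.7% (33.2 to 38.4). The suprabasal range held 26.0% (22.2 to 30.1) and 26.4% (24.1 to 28.8), whose intervals overlap. Within 5 percentage points of the lower limit lay 12 and 84 cells, and of the upper limit 30 and 98.

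**Figure D2:**
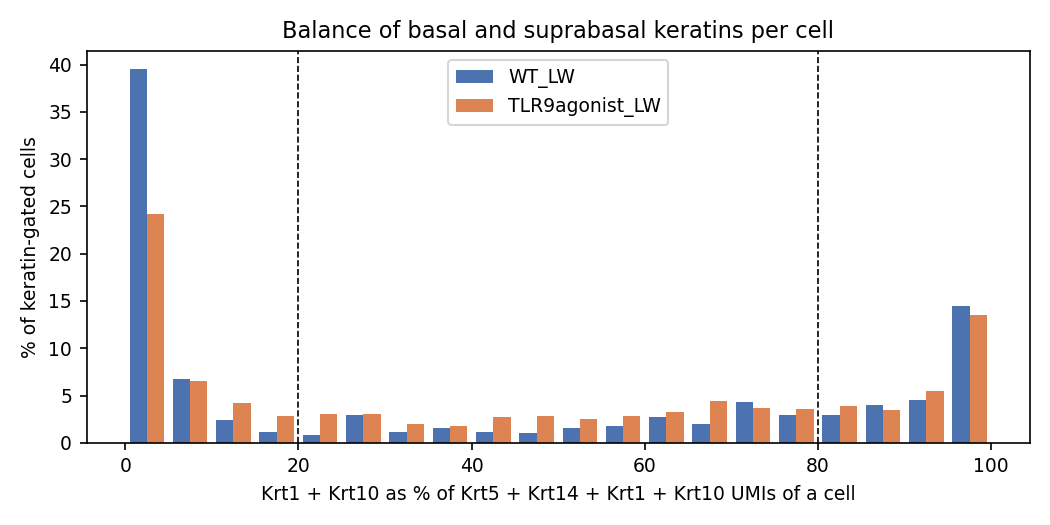
Suprabasal share of single keratin-gated cells (Krt1 and Krt10 as a percentage of the UMIs of Krt5, Krt14, Krt1 and Krt10, in steps of 5 points) as the percentage of gated cells of each library, with dashed lines at the limits of the 3 ranges. Both libraries peak at the ends, and the first step holds 39.5% of cells in WT_LW and 24.2% in TLR9agonist_LW.

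The larger mixed range of TLR9agonist_LW went together with more epidermal keratin RNA in T cells, from free RNA or doublets, and with deeper cells. With the level of T cells subtracted from each cell, the mixed range held 23.6% and 28.2%, the basal range 50% and 42.3%, and the median suprabasal share was 18.8% and 41.1%. Among cells whose 4 gate keratins made up at least 2% of their UMIs, the mixed range held 32.9% and 38.1%, and among cells with at least 100 such UMIs 28.7% and 34.1%. At least 10 UMIs of both pairs were found in 40.7% of gated cells of WT_LW and 58.7% of TLR9agonist_LW. After every cell was thinned to 2000 UMIs, the same was true of 24.0% (20.3 to 28.0) and 25.7% (23.4 to 28.1), against 0.163% and 0.174% of T cells. At 3 or more UMIs of both pairs the thinned shares were 40.5% (36.2 to 44.9) and 49.6% (47.0 to 52.3), against 0.326% and 3.75% of T cells. At equal depth the intervals were thus apart at the lower limit, where T cells of the libraries differed as well, and overlapped at the higher one. Summed over all gated cells, suprabasal keratins made up 55.3% of the 4-keratin UMIs in WT_LW and 51.2% in TLR9agonist_LW, opposite in direction to the median cell. The log2 ratio of the summed balance was -0.24 (-0.25 to -0.22), and it was 0.08 when gated cells placed in another class by markers were left out, so its direction rests on those cells.

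Krt15 was at 424 CPM (410 to 437) in WT_LW and 81.4 (78.2 to 84.6) in TLR9agonist_LW. The log2 ratio was -2.38 (-2.45 to -2.31), lower than that of all but 0.409% of the 8803 genes with at least 200 UMIs. In cells thinned to 2000 UMIs, Krt15 had a UMI in 25% (21.3 to 29.0) of gated cells in WT_LW, or 126 cells, and in 9.94% (8.41 to 11.7) in TLR9agonist_LW, or 136 cells. T cells gave 1.47% and 1.22%, so both shares lie above background. Without thinning the shares were 41.3% and 22.2%. The positive cells held 3.34 ± 4.19 and 1.99 ± 1.82 Krt15 UMIs of 2000 (mean ± SD over cells), and 5 or more were found in 24 cells (4.76%) and 8 cells (0.585%), which held 9.96 ± 5.90 and 7.88 ± 2.53.

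Krt79 was at 1223 CPM (1201 to 1246) in WT_LW and 345 (338 to 351) in TLR9agonist_LW, with a log2 ratio of -1.83 (-1.87 to -1.79) that was lower than that of all but 1.09% of genes. A UMI was found in 21.8% (18.3 to 25.7) of thinned cells in WT_LW, or 110 cells, and in 7.97% (6.59 to 9.53) in TLR9agonist_LW, or 109 cells. T cells gave 4.45% and 3.40%. Without thinning the shares were 38.5% and 19%. Krt79 RNA sat in few cells. In WT_LW 16 cells held 50% of its UMIs and in TLR9agonist_LW 14 cells did, and the top 5% of cells held 66.0% and 97.1%. Positive cells held 13.0 ± 16.5 and 10.1 ± 12.5 Krt79 UMIs of 2000. Those with 5 or more numbered 64 and 49 and held 21.2 ± 17.5 and 20.5 ± 12.2, and they made up 12.7% (9.92 to 15.9) and 3.58% (2.66 to 4.71) of gated cells.

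Gated cells with any follicle keratin UMI were of like number in the 2 libraries, but these numbers include background that grows with the number of gated cells. Those with 5 or more UMIs were fewer in TLR9agonist_LW. Of all cells with at least 2000 UMIs, Krt15-positive gated cells made up 1.24% (1.03 to 1.47) in WT_LW and 1.15% (0.969 to 1.36) in TLR9agonist_LW, with a log2 ratio of -0.10 (-0.46 to 0.26). For Krt79 the shares were 1.08% (0.890 to 1.30) and 0.924% (0.760 to 1.11), with a log2 ratio of -0.23 (-0.62 to 0.17). The share of gated cells had a log2 ratio of 1.23 (1.08 to 1.38). Cells with 5 or more Krt15 UMIs were scarcer also on this base, at 0.236% and 0.0678%, with a log2 ratio of -1.80 (-3.16 to -0.60), and those with 5 or more Krt79 UMIs had a ratio of -0.60 (-1.17 to -0.04). Over all deposited cells, with no gate, Krt15 was at 58.6 and 25.3 CPM and Krt79 at 204 and 109, log2 ratios of -1.21 and -0.91. The 4 epidermal keratins were higher there in TLR9agonist_LW, by 0.33 for Krt5, 0.89 for Krt14, 0.55 for Krt1 and 0.76 for Krt10, where the gate gave values below 0.

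**Figure D3:**
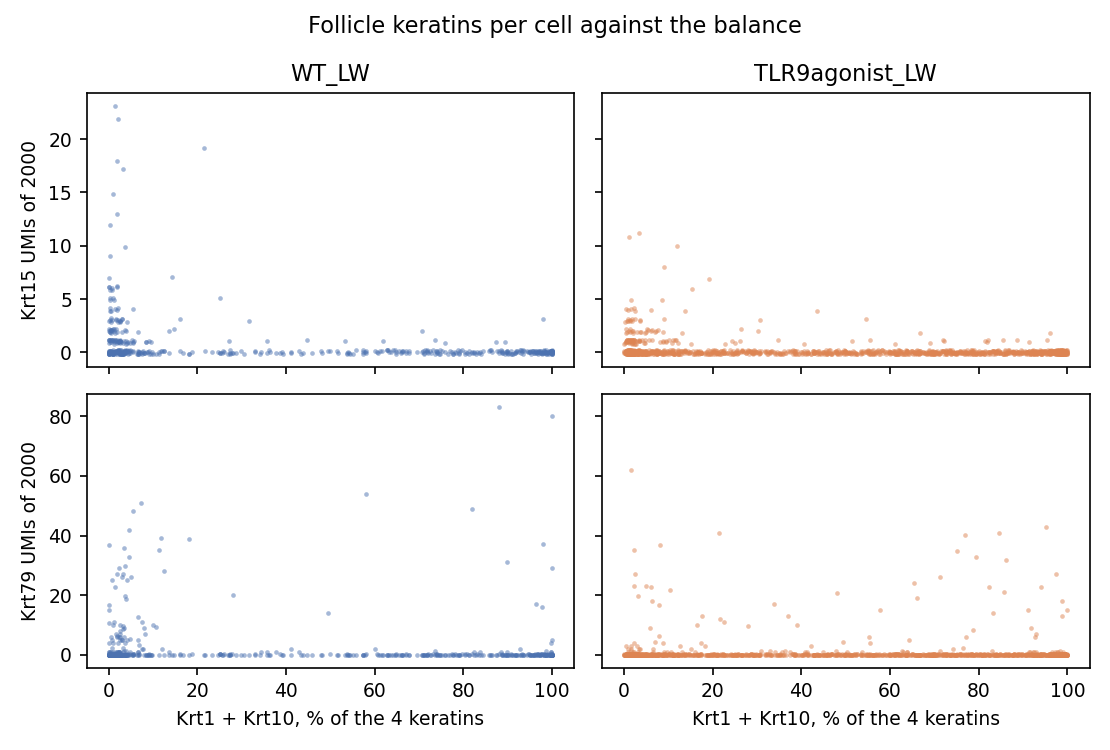
Krt15 (top) and Krt79 (bottom) UMIs of each keratin-gated cell after thinning to 2000 UMIs, against the suprabasal share of the cell in percent, for WT_LW (left) and TLR9agonist_LW (right); points are cells, spread slightly on the vertical axis. Krt15 lies at the basal end in both libraries, and cells with 5 or more Krt79 UMIs lie mostly at the basal end in WT_LW (52 of 64) but along the whole axis in TLR9agonist_LW (15 of 49 in the basal range).

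The 2 follicle keratins occupied different places along the balance. Krt15 was a basal-range gene in both libraries, with 112 of its 126 thinned positive cells there in WT_LW and 110 of 136 in TLR9agonist_LW. Its UMIs lay to 89.1% and 83.5% in that range. Krt79 was not tied to it in the same way. Of the cells with 5 or more Krt79 UMIs, 52 lay in the basal, 3 in the mixed and 9 in the suprabasal range in WT_LW, against 15, 19 and 15 in TLR9agonist_LW. The median suprabasal share of these cells was 3.79% and 57.7%. The basal range held 65.7% of Krt79 UMIs in WT_LW and 33.4% in TLR9agonist_LW. Few cells carried both genes, at 17 of 504 and 9 of 1368 thinned cells. If the genes were independent, 27.5 and 10.8 such cells would be found, so the number in TLR9agonist_LW was close to that and the number in WT_LW was lower.

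Within each range the follicle keratins were lower in TLR9agonist_LW. In the basal range Krt15 was at 720 CPM in WT_LW and 183 in TLR9agonist_LW, with a log2 ratio of -1.98 (-2.06 to -1.90). In the mixed range it was at 154 and 28.0, a ratio of -2.46 (-2.68 to -2.24). In the suprabasal range it was at 33.5 (26.1 to 42.4) and 11.5. In CPM this was above the T cell level of 16.0 in WT_LW and at that of 11.7 in TLR9agonist_LW. T cells were shallower than suprabasal-range cells in both libraries, and the part of free RNA was not tested. For Krt79 the gap was widest at the basal end, with 1534 and 309 CPM, with a log2 ratio of -2.31 (-2.37 to -2.25). It was narrower in the mixed range, at 478 and 287, a ratio of -0.74 (-0.83 to -0.64), and in the suprabasal range, at 1332 and 482, a ratio of -1.47 (-1.54 to -1.40).

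**Figure D4:**
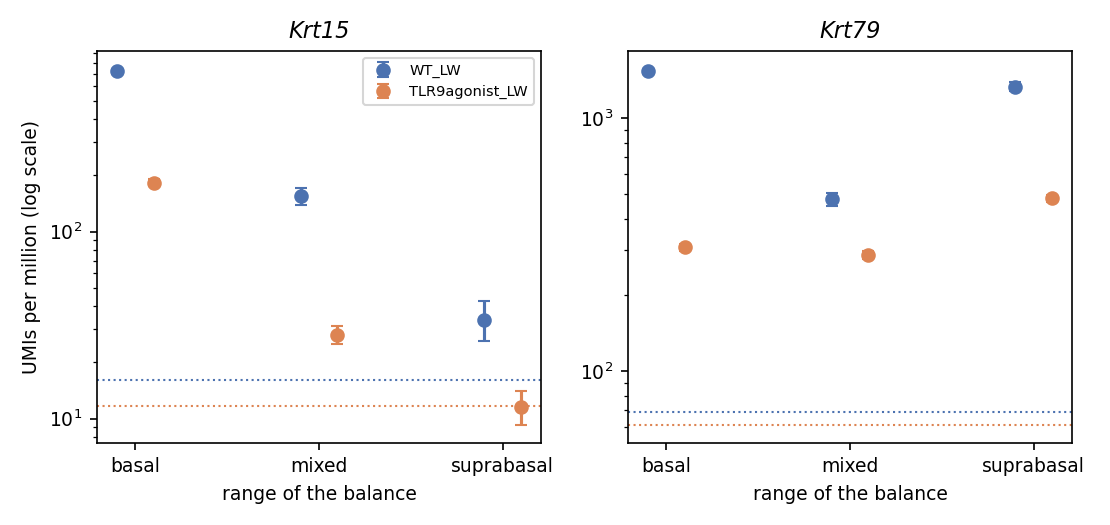
Krt15 (left) and Krt79 (right) in CPM (log axis, with exact Poisson 95% intervals) in the basal, mixed and suprabasal range of each library; dotted lines give the level in T cells of the same library. WT_LW lies above TLR9agonist_LW in each range, and Krt15 of TLR9agonist_LW meets its T cell level in the suprabasal range (11.5 and 11.7).

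In thinned counts, most basal-range cells of WT_LW held a UMI of a follicle keratin, and most of those of TLR9agonist_LW held none. Without thinning, Krt15 had a UMI in 66.9% of these cells in WT_LW and 46.5% in TLR9agonist_LW, and Krt79 in 51.4% and 19.7%. Whether most basal-range cells of TLR9agonist_LW lacked both genes without thinning was not tested. After thinning, 38.6% (32.6 to 45.0) of the 251 basal-range cells of WT_LW had Krt15 without Krt79, 26.7% (21.3 to 32.6) Krt79 without Krt15, 5.98% both and 28.7% (23.2 to 34.7) neither. Of the 518 cells of TLR9agonist_LW the shares were 19.9% (16.5 to 23.6), 6.56% (4.59 to 9.05), 1.35% and 72.2% (68.1 to 76.0). In numbers, 97 and 103 cells had Krt15 alone, 67 and 34 Krt79 alone, and 72 and 374 neither. The groups differed in basal keratins too. In cells with Krt15 alone Krt5 was at 6956 CPM in WT_LW and 5348 in TLR9agonist_LW, in cells with neither at 5503 and 3833, and in cells with Krt79 alone at 1237 and 925. The last thus held little of the basal keratin although they lay in the basal range. Krt14 was at 13116 and 13335, at 11990 and 11800, and at 5041 and 6813 in the same 3 groups. The Krt14 to Krt5 ratio was higher in TLR9agonist_LW in each, with log2 ratios of 0.40, 0.50 and 0.85. Krt17 was highest in the cells with Krt79 alone, at 4789 and 7457, against 595 and 1273 with Krt15 alone.

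The genes whose counts varied most like each member across single cells followed the same lines. Likeness is the lower of the correlations in the 2 libraries, over thinned gated cells that share library and depth. Only genes with a UMI in at least 10% of these cells in each library were compared. Sparser genes could therefore not be found as neighbours, among them Krt15 and Krt79, which fell below that limit in TLR9agonist_LW. For Krt5 the nearest were S100a6 (0.57), the hemidesmosome collagen Col17a1 (0.54) and Krt14 (0.52), and for Krt14 they were Krt5 (0.52), S100a6 (0.33) and Col17a1 (0.29). Krt1 and Krt10 were nearest to each other (0.84), then to Krtdap (0.69 and 0.66), a gene of differentiating keratinocytes, and Calm4 (0.66 and 0.68). Krt79 was nearest to the defensin Defb6 (0.74), the protease inhibitor Cst6 (0.59) and Krt17 (0.42). Krt15 had only weak neighbours, Krt5 (0.28), Col17a1 (0.26) and Apoe (0.24). In sparse counts values this low carry little. Between Krt15 and Krt79 the correlation was -0.12 in WT_LW and -0.04 in TLR9agonist_LW.

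The wound stress keratins, genes beside Krt5 and Krt14 in the clusters, were higher in TLR9agonist_LW, unlike the lineage members. All 4 lay above 0, whereas 80.0% of all genes lay below 0. Their median log2 ratio was 0.54 against -0.44 over all genes. Krt6b was at 1085 CPM in WT_LW and 2002 in TLR9agonist_LW (0.88), Krt16 at 3240 and 4863 (0.59), Krt17 at 1587 and 2235 (0.49) and Krt6a at 1889 and 2489 (0.40). Krt6a and Krt6b are near-identical, so their split is uncertain. For Krt6b, Krt16 and Krt6a the difference was widest at the basal end. There Krt6b was at 151 and 1024, with a log2 ratio of 2.76 (2.65 to 2.87), Krt16 at 643 and 2107, a ratio of 1.71 (1.66 to 1.77), and the ratio of Krt6a was 0.63. Only 49.9% and 72.1% of all Krt6b UMIs and 57.8% and 70.0% of all Krt16 UMIs lay in gated cells. The part of free RNA in the stress keratin levels was not tested. Krt17 differed most in the mixed range, at 0.97 (0.92 to 1.03) against 0.36 in the basal range. In the mixed range the ratios were 0.30 for Krt6b, 0.05 for Krt6a and -0.01 for Krt16, whose interval of -0.03 to 0.02 holds 0. In the suprabasal range the 4 ratios lay between 0.08 and 0.19. Stress keratins made up 21% of all keratin UMIs in WT_LW and 35.9% in TLR9agonist_LW. Suprabasal keratins made up 41.2% and 32.1%, basal keratins 33.2% and 30.6%, and Krt15 with Krt79 4.43% and 1.32%.

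Of the 51 keratin genes in the files, 40 had a UMI in gated cells. Beside the members, 11 had at least 50 UMIs, of which 6 lay above 0, 5 below 0 and 4 at or under -1. Of all genes with at least 200 UMIs, 80.0% lay below 0 and 12.7% at or under -1. Krt75, a keratin of the follicle companion layer, gave 202 UMIs in WT_LW and 8 in TLR9agonist_LW, with a log2 ratio of -6.42 (-7.65 to -5.41). Krt78, the neighbour of Krt79, gave 63 and 43 UMIs, a ratio of -2.31 (-2.90 to -1.73), Krt32 gave 25 and 29 UMIs, a ratio of -1.54 (-2.37 to -0.71), and Krt7 gave 120 and 193 UMIs, a ratio of -1.07 (-1.41 to -0.73). The highest ratios outside the stress group were those of Krt77, a suprabasal type II keratin, at 0.67 (0.38 to 0.96), and Krt23 at 0.52 (0.02 to 1.06). Both rested on few UMIs, at 116 and 622 for Krt77 and 39 and 189 for Krt23.

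**Figure D5:**
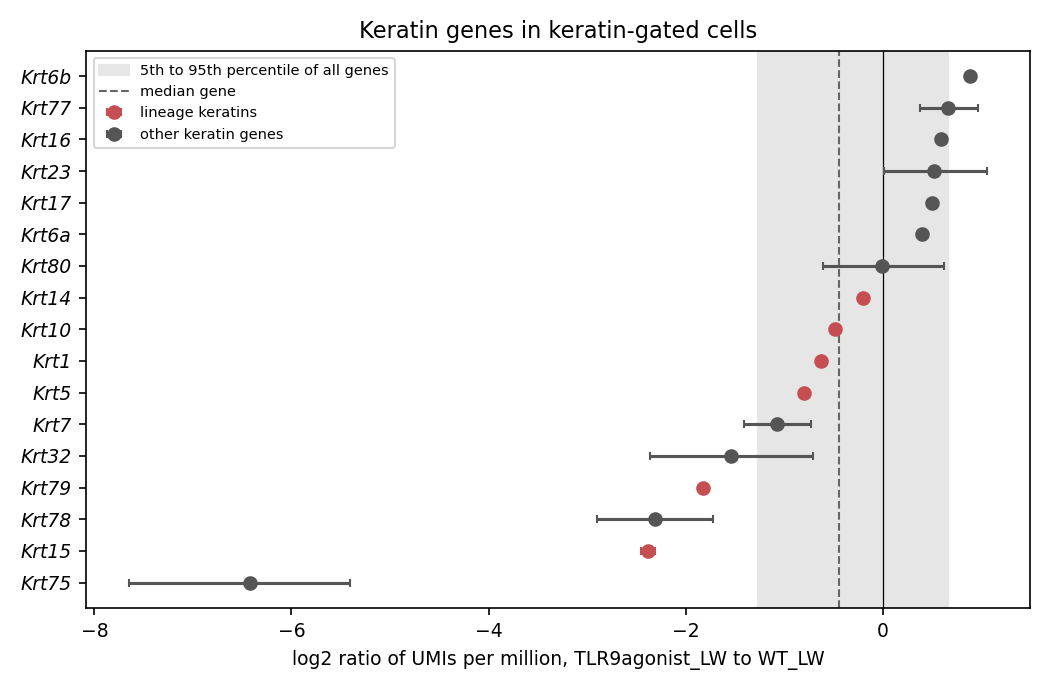
Log2 ratio of CPM in TLR9agonist_LW to WT_LW for each keratin gene with at least 50 UMIs in gated cells, with exact 95% intervals for counting error; red points are the 6 lineage keratins, and grey shading spans the 5th to 95th percentile of all genes (-1.27 to 0.66) around the dashed median gene (-0.44). Krt15 (-2.38) and Krt79 (-1.83) lie below the shading with Krt75, Krt78 and Krt32, and the stress keratins lie to the right of 0.

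Other genes of the same lineages were counted from lists. The 7 basal genes counted lay below 0, as did 80.0% of all genes, with a median log2 ratio of -1.14. At or under -1, where 12.7% of all genes lay, were 4 of them, namely Dst (-1.73), Itga6 (-1.40), Lamb3 (-1.22) and Col17a1 (-1.14), which encode parts of the hemidesmosome and its laminin. Trp63 was at -0.79, Itgb4 at -0.78 and Itga3 at -0.97. These values pool gates with unequal shares of basal-range cells. Within the basal range Dst was at -1.54, Itga6 at -1.03, Lamb3 at -0.70 and Col17a1 at -0.66. Itga3 was at -0.50, Trp63 at -0.49 and Itgb4 at -0.30 there, and the median gene of that range was at -0.34. The suprabasal list had 5 of 8 genes above 0, whereas 80.0% of all genes lay below 0, and a median of 0.14. Its highest were Grhl3, a transcription factor of barrier formation (25.1 and 83.7 CPM, 1.74), and Lypd3 (361 and 768, 1.09), both past the level of 1 that 2.75% of all genes reached. Krtdap (0.33), Sbsn (0.25) and Dmkn (0.02) were above 0, and Dsg1a (-0.29), Dsc1 (-0.49) and Calml3 (-0.87) below.

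The follicle lists were not of one direction. Of 6 upper follicle genes 5 lay below 0, a share near the 80.0% of all genes. At or under -1, where 12.7% of all genes lay, were 3 of them, and the median was -1.21. Lrig1, a marker of junctional zone stem cells, was at 36.0 and 9.95 CPM (-1.86), Atp6v1c2 at 18.6 and 5.75 (-1.69), and Gata6, a transcription factor of the sebaceous duct, at 7.97 and 2.91 (-1.46). Over all gated cells Cst6 (-0.96) and Defb6 (-0.46), the genes nearest to Krt79, lay closer to 0 than Krt79 itself. Their direction changed with the balance. In the basal, mixed and suprabasal range Defb6 was at -1.17, 1.43 and 0.08, and Cst6 at -1.12, 0.41 and -1.24. In the mixed range Defb6 gave 289 UMIs in WT_LW and 3940 in TLR9agonist_LW. Cells with 5 or more Krt79 UMIs were few in the mixed and suprabasal range, at 3 and 9 in WT_LW and 19 and 15 in TLR9agonist_LW. How far the signs rest on such few cells was not tested. Plet1 lay above 0 over all gated cells, at 215 and 631 CPM, with a log2 ratio of 1.56 (1.49 to 1.62). Of 6 bulge genes 4 lay below 0 and the median was -0.43, close to that of all genes. Lhx2 was at 5.46 and 1.36 (-2.01), and Nfatc1 (-0.85), Cd34 (-0.62) and Sox9 (-0.24) lay between it and 0. Lgr5 rested on 18 and 181 UMIs, a ratio of 1.57 (0.87 to 2.36), and Postn, also a fibroblast gene, was at 0.18.

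Sebaceous genes were lower along with the follicle keratins. All 6 lay at or under -1, against 12.7% of all genes, and their median was -5.33. Fa2h was at 138 and 0.678 CPM (-7.67), Far2 at 65.7 and 0.420 (-7.29) and Elovl3 at 82.8 and 0.775 (-6.74). Scd1 was at 544 and 36.1 (-3.91), Soat1 at 164 and 17.4 (-3.24) and Mgst1 at 271 and 81.6 (-1.73). Cells with at least 3 of them at 2 UMIs or more numbered 21 in WT_LW (4.17%, 2.60 to 6.30) and 6 in TLR9agonist_LW (0.439%, 0.161 to 0.952). They held 9.13% and 1.55% of Krt79 UMIs and 3.12% and 0 of Krt15 UMIs. Without them the log2 ratio was -1.82 for Krt79 and -2.44 for Krt15, so the difference of the follicle keratins was as large without these cells.

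Keratin UMIs in cells that should lack them, from free RNA or from doublets, were present in both libraries and were higher in TLR9agonist_LW for the epidermal members. T cells held 362 CPM of Krt14 in WT_LW and 941 in TLR9agonist_LW, 332 and 629 of Krt1, 303 and 675 of Krt10, and 131 and 235 of Krt5. For the follicle members the order was the other way, at 16.0 and 11.7 for Krt15 and 69.0 and 61.2 for Krt79. Gated cells stood above T cells by 17.7-fold to 26.5-fold in WT_LW and by 5.63-fold to 8.67-fold in TLR9agonist_LW. With the T cell level in CPM subtracted, the log2 ratio was -2.55 for Krt15 and -2.03 for Krt79. This subtraction does not allow for the greater depth of gated cells. Without the 61 and 159 cells that carried most fibroblast RNA, the ratio of Krt79 was -1.91. The median mitochondrial share of gated cells was 3.64% in WT_LW and 2.68% in TLR9agonist_LW, and with cells above 10% left out the ratio of Krt79 was -1.78.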

How the data were processed

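Raw UMI counts per gene and cell were deposited by the authors for both libraries, made with Cell Ranger 4.0.0 per the file headers, limited to barcodes called as cells, and not normalized. The submitters' processing notes also name fastp, Seurat and the genome build mm9. The libraries held 99374045 and 132339022 UMIs. Symbols were matched to both count matrices, and cells were gated as stated. UMIs were summed over gated cells and given per 1000000 of all their UMIs (CPM), with exact Poisson 95% intervals. Each ratio has the exact conditional interval, and each share a Clopper-Pearson interval. With 1 library per group nothing was tested. Shares of cells with a UMI were taken after thinning each cell to 2000 UMIs with seed 1. Ratios over all genes used the 8803 genes with at least 200 UMIs in gated cells. Doublets were kept, and the top 8% of Scrublet scores were left out as an alternative, which took 25 and 121 gated cells. Cell classes needed at least 3 markers at 2 UMIs or more. Named genes were the members, keratins with at least 200 UMIs, genes of the lineage lists and the 3 genes most like each member. Krt78 and Krt32, below that count, were named after their values were seen. One gene of the basal list was left out of its counts and is not reported here. The members and lists were chosen with earlier results of these data known. Scripts were tested on simulated data. The tools were scanpy 1.11.5, scipy 1.17.1, numpy 2.4.6, pandas 2.3.3 and matplotlib 3.10.9 under Python 3.11.15. Promoters came from RefSeq (GRCm38.p6), with entries for 4 of the 6 members.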

Additional observations from a re-analysis of the deposited data

Results flagged for a closer look

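The comparisons of the report use cells with at least 2000 UMIs. The 2629 cells of WT_LW and 1959 of TLR9agonist_LW below that depth carried keratin RNA as well, and 3 members were higher there in TLR9agonist_LW than in the control library. Krt14 was at 836 CPM in WT_LW and 1542 in TLR9agonist_LW, with a log2 ratio of 0.88 (0.81 to 0.96). Krt1 was at 1013 and 1633, a ratio of 0.69 (0.62 to 0.76), and Krt10 at 681 and 1759, a ratio of 1.37 (1.29 to 1.45). Krt5 was at 309 and 308. The follicle members were lower there, as in the gated cells, with Krt15 at 36.9 and 11.2 (-1.72, -2.41 to -1.09) and Krt79 at 157 and 60.0 (-1.39, -1.67 to -1.11). Keratin RNA in T cells, from free RNA or doublets, also was higher in TLR9agonist_LW for Krt14, Krt1 and Krt10. The part of free RNA in the values of these shallow cells was not tested.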

How the results depend on the processing

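Values are log2 ratios of TLR9agonist_LW to WT_LW, and their spread between replicates is unknown. Krt15 and Krt79 lay below 0 under all 14 alternatives, from -2.57 to -1.21 and from -2.03 to -0.91. In all deposited cells the epidermal members turned, to 0.33 for Krt5, 0.89 for Krt14, 0.55 for Krt1 and 0.76 for Krt10, with Krt15 at -1.21 and Krt79 at -0.91, which left 1 member at or past 1 in place of 2. Relative to the median gene the values were -0.36, 0.24, -0.19, -0.043, -1.94 and -1.39 in the same order. With at least 100 gate keratin UMIs they were -0.90, -0.30, -0.77, -0.63, -2.57 and -1.50, with the balance at -0.28. With gate keratins at 2% of UMIs or more they were -0.97, -0.28, -0.58, -0.44, -2.20 and -1.75, with the balance at -0.10. With the T cell level subtracted they were -0.95, -0.32, -0.74, -0.63, -2.55 and -2.03. Equal weight per cell gave Krt5 -0.63, Krt14 -0.12, Krt1 -0.48, Krt10 -0.35, Krt15 -2.08 and the balance -0.19. Leaving out top doublet scores gave Krt5 -0.72, Krt14 -0.14, Krt1 -0.60, Krt10 -0.45, Krt79 -1.77 and the balance -0.27. Without cells put in another class Krt5 was -0.76, Krt1 -0.35, Krt10 -0.13, Krt79 -1.50, the balance 0.079 and the share of cells in the suprabasal range 0.37, and the cause of the turn was not tested. Without cells rich in fibroblast RNA the values were Krt5 -0.73, Krt14 -0.16, Krt1 -0.61, Krt10 -0.44, Krt79 -1.91 and the balance -0.26. Without cells with sebaceous genes they were Krt5 -0.89, Krt14 -0.28, Krt1 -0.71 and Krt10 -0.56. At least 5000 UMIs gave Krt14 -0.22, Krt79 -1.88 and the suprabasal share 0.28. No condition on Ptprc gave Krt14 -0.26, Krt1 -0.64 and the balance -0.20, and at most 10% mitochondrial UMIs gave Krt14 -0.18, Krt10 -0.43, Krt79 -1.78 and the balance -0.22. Without thinning the share of cells with Krt15 had a ratio of -0.89 in place of -1.33, and with Krt79 -1.02 in place of -1.45. The 4 alternatives (cells rich in fibroblast RNA, cells with sebaceous genes, the T cell level, all deposited cells) were those chosen after seeing the data.

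Depth limits the reading of levels at or below those of T cells in CPM, such as Krt10 at the basal end and, in TLR9agonist_LW, Krt15 at the suprabasal end. Whether these levels are free RNA was not tested. No paired analysis was possible because each group is 1 library, and for the same reason none was left out in turn.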
